A study of Mus musculus with 6 samples.

Results

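The transcripts of 10 enzymes that remove peroxides and superoxide were followed in F4/80-positive cells of the liver: *Gpx1*, *Gpx3* and *Gpx4* (glutathione peroxidases), *Prdx1*, *Prdx5* and *Prdx6* (peroxiredoxins), *Sod1* and *Sod2* (superoxide dismutases), *Cat* (catalase) and *Aifm2* (the coenzyme Q reductase also called FSP1). They were taken by name, as enzymes of this function, with earlier results of these data known, and are 10 of the 49315 genes counted. All 10 passed the filter on low counts, as did 16134 genes in all. The cells came from 3 WT mice, which carried floxed *Lpcat3* alleles without Cre (Lpcat3 fl/fl; LysM +/+), and from 3 *Lpcat3KOMac* littermates, which also carried LysM Cre (Lpcat3 fl/fl; LysM Cre/+). Both genotypes were on a C57BL/6N background, were put on the diet as young adults and ate a high-fat diet (HFD) with 60% fat for 16 weeks, so no mouse on another diet enters the comparison. LysM Cre is driven by the *Lyz2* locus in myeloid cells, so other liver cells keep the floxed gene. Livers were digested with collagenase, hepatocytes were spun down, F4/80-positive cells were enriched with magnetic beads, and 1 RNA library was made per mouse.

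Superoxide made by mitochondria and by NADPH oxidase is turned into hydrogen peroxide by superoxide dismutases, SOD1 in the cytosol and SOD2 in the mitochondrial matrix. Catalase breaks hydrogen peroxide down in peroxisomes, while glutathione peroxidases and peroxiredoxins reduce it with electrons from glutathione and thioredoxin. GPX4 and FSP1 protect membranes: the former reduces lipid hydroperoxides inside phospholipids, and the latter regenerates the reduced form of coenzyme Q, which traps lipid radicals. LPCAT3 puts arachidonic acid and other polyunsaturated fatty acids into phospholipids, which are the acyl chains most open to peroxidation, and the comparison therefore asks whether the transcripts of these guards differed when macrophages carried less *Lpcat3*.

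The transcripts of *Gpx1* and *Prdx5* were each lower in all 3 *Lpcat3KOMac* mice than in any WT mouse, at 78.7% and 80.4% of the WT mean. Over all genes tested, 5.2% were lower in every *Lpcat3KOMac* library, and 7.49% did not overlap in either direction. Neither difference passed the adjusted threshold. The other 8 overlapped between genotypes, among them *Gpx4* and *Aifm2*, whose means lay within a few percent of each other. *Prdx6* and *Cat* varied most between mice (6.70-fold and 5.34-fold from the lowest library to the highest), in the same order of libraries as the hepatocyte transcripts in the preparation.

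GPX1, GPX3 and GPX4 carry selenocysteine in the active site, which is read from a TGA codon that would otherwise end translation. That codon is shown because it is the feature that sets these 3 members apart from the other 7, whose annotated coding sequences hold none. The stretches below come from the GENCODE M21 transcripts, are read 5′ to 3′ on the coding strand, and have the selenocysteine codon in capitals. It is codon 47 of *Gpx1* (GRCm38, chr9:108339451-108339453), codon 73 of *Gpx3* (chr11:54907256-54907258) and codon 129 of the longest coding sequence of *Gpx4* (chr10:80054737-80054739), all on the plus strand.
Gpx1: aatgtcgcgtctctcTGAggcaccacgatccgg
Gpx3: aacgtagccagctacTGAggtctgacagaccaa
Gpx4: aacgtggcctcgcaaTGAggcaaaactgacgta

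Total counts lay between 44954224 and 71392812 per library, and levels are TMM-normalized counts scaled by effective library size (CPM). *Lpcat3* was lower in each *Lpcat3KOMac* library (19.4 to 33.3 CPM) than in each WT library (61.2 to 85.0 CPM), and 34.0% of the WT mean remained (log2 fold change -1.56, SE 0.26, unadjusted p = 0.00119 and adjusted p = 1 with edgeR, adjusted p = 0.0028 with DESeq2). All 8 Kupffer cell markers searched (among them *Clec4f*, *Vsig4* and *Cd5l*) were detected in every library. Transcripts of other liver cells were present too. The mean log2 CPM of 5 hepatocyte transcripts (*Alb*, *Apoa1*, *Apoa2*, *Ttr* and *Fgb*) stood at 11.35, 7.79 and 7.44 for WT mice 1, 2 and 3 and at 9.12, 10.40 and 8.97 for *Lpcat3KOMac* mice 1, 2 and 3, a 15.1-fold range. WT mouse 1 and *Lpcat3KOMac* mouse 2 were the richest libraries, and the genotypes overlapped (two-sided exact permutation test, p = 0.6). Within each genotype the richest library also held the most *Lpcat3* (85.0 CPM for WT mouse 1 and 33.3 CPM for *Lpcat3KOMac* mouse 2). The part of hepatocytes in the remaining *Lpcat3* was not tested. In such bulk samples fewer cells of a type and less RNA per cell cannot be told apart.

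With edgeR's quasi-likelihood test and Benjamini-Hochberg adjustment over all 16134 genes, 0 of the 10 enzymes and 0 genes in all (0%) passed an adjusted p-value of 0.05. At an unadjusted p-value under 0.05 there were 2 of the 10 enzymes, beside 426 genes (2.64%) in the whole table. DESeq2 called 15 of the 13510 genes to which it gave an adjusted p-value (0.111%), *Lpcat3* among them, and limma-voom called 0. Neither called any of the 10 enzymes. Every *Lpcat3KOMac* library was below every WT library for 2 of the 10, as for 5.2% of all genes tested, and the groups did not overlap in either direction for 7.49%. All 10 log2 fold changes were below 0, with a median of -0.11. Over all genes tested, 59.9% were below 0, with a median of -0.04, and 5 of the 10 enzymes were below 0 with library totals alone as the scaling, and 3 of the 10 without WT mouse 1.

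**Figure D1:**
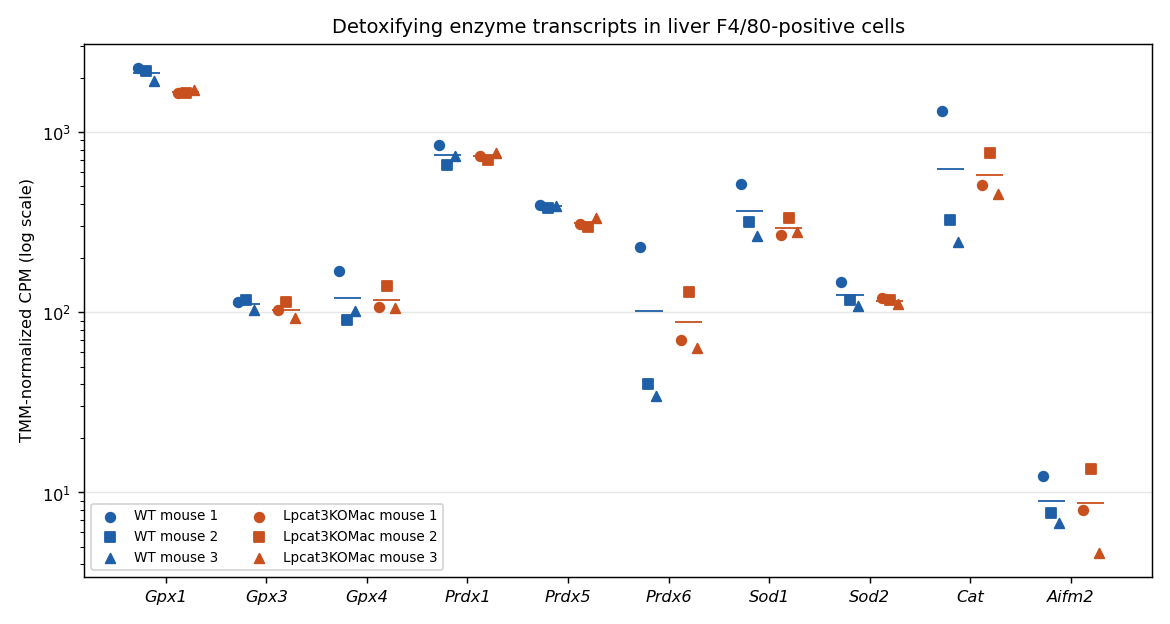
TMM-normalized CPM (log axis) of each enzyme in each of the 6 libraries, 3 WT (blue) and 3 *Lpcat3KOMac* (orange), with a short line at each genotype's mean and 1 symbol shape per mouse number. The 2 colours are apart for *Gpx1* and *Prdx5*, while WT mouse 1 stands well above the other WT mice for *Prdx6*, *Cat*, *Sod1*, *Gpx4* and *Aifm2*. It does so by less for *Sod2* and *Prdx1*.

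Among the glutathione peroxidases, *Gpx1* (ENSMUSG00000063856, chr9:108338903-108340343, plus strand), which codes for the cytosolic and mitochondrial enzyme that reduces hydrogen peroxide, was the highest of the 10, in CPM and per exonic kilobase. Values per mouse are given throughout in the order of mouse numbers. It reached 2261, 2171 and 1916 CPM in the WT mice and 1644, 1644 and 1706 CPM in the *Lpcat3KOMac* mice. The lowest WT library stood above the highest *Lpcat3KOMac* library, and the *Lpcat3KOMac* libraries lay close together. Means were 2116 ± 179 CPM in WT and 1665 ± 36.0 CPM in *Lpcat3KOMac* cells (SD, n = 3 each). On the log2 scale the difference was -0.35 (standard error, SE, 0.09, 95% interval -0.58 to -0.11). The unadjusted p-value was 0.0113 and the adjusted p-value 1 by edgeR's quasi-likelihood test, and the exact permutation test gave 0.1, the smallest value that 3 mice against 3 allow. *Gpx1* was below 0 in all 18 alternative analyses (-0.41 to -0.25), and in 3 of them its unadjusted p-value was above 0.05.

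*Gpx3* (ENSMUSG00000018339, chr11:54902453-54910377, plus strand) codes for the secreted plasma peroxidase. It reached 114, 116 and 103 CPM in the WT mice and 103, 114 and 93.2 CPM in the *Lpcat3KOMac* mice. The genotypes overlapped, and the log2 fold change of -0.11 (SE 0.10, 95% interval -0.36 to 0.14) was not distinguishable from 0.

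*Gpx4* (ENSMUSG00000075706, chr10:80047166-80056439, plus strand), the phospholipid hydroperoxide reductase, reached 169, 91.1 and 102 CPM in the WT mice and 107, 140 and 105 CPM in the *Lpcat3KOMac* mice. The highest library of each genotype was the one richest in hepatocyte transcripts, and the genotypes overlapped. Its log2 fold change was -0.04 (SE 0.27), and the 95% interval of -0.70 to 0.62 leaves room for a difference of more than 1.5-fold in either direction. A transcribed pseudogene, *Gpx4-ps2*, is 99.6% identical to *Gpx4* over 509 coding bases. Its own count reached 5.55% of that of *Gpx4* at most, so reads may have been split between them.

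Among the peroxiredoxins, *Prdx5* (ENSMUSG00000024953, chr19:6906697-6910106, minus strand), whose product works in mitochondria, peroxisomes and the cytosol, was the other member that separated by genotype. It reached 396, 381 and 391 CPM in the WT mice and 308, 298 and 333 CPM in the *Lpcat3KOMac* mice. The WT libraries lay within a few percent of each other and all above the *Lpcat3KOMac* libraries. Means were 389 ± 7.87 CPM in WT and 313 ± 17.9 CPM in *Lpcat3KOMac* cells (SD, n = 3 each). This amounts to -0.32 on the log2 scale (SE 0.08, 95% interval -0.51 to -0.12). The unadjusted p-value was 0.00785 and the adjusted p-value 1 (edgeR's quasi-likelihood test, Benjamini-Hochberg adjusted), and the exact permutation test again gave 0.1. *Prdx5* was below 0 in all 18 alternatives (-0.39 to -0.22), and its unadjusted p-value was above 0.05 in 2 of them.

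Exons of *Prdx5* share 409 bases with *Trmt112* on the other strand, and whether reads were counted by strand is not given in the sources used here. *Trmt112*, a subunit of RNA and protein methyltransferases, was also lower in every *Lpcat3KOMac* library, at 35.7 ± 0.148 CPM in WT and 32.6 ± 0.888 CPM in *Lpcat3KOMac* cells (SD, n = 3 each). The part of the shared bases in the difference of *Prdx5* was not tested.

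*Prdx1* (ENSMUSG00000028691, chr4:116685544-116700822, plus strand), the abundant cytosolic peroxiredoxin that is recycled by thioredoxin, reached 849, 658 and 734 CPM in the WT mice and 733, 701 and 766 CPM in the *Lpcat3KOMac* mice. The *Lpcat3KOMac* libraries lay inside the range of WT. The log2 fold change was -0.03 (SE 0.12), and the 95% interval of -0.32 to 0.26 does not reach a difference of 1.5-fold.

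*Prdx6* (ENSMUSG00000026701, chr1:161240112-161251219, minus strand) codes for the peroxiredoxin that uses a single cysteine, reduces phospholipid hydroperoxides and also has phospholipase A2 activity. It reached 230, 40.1 and 34.4 CPM in the WT mice and 70.2, 129 and 63.6 CPM in the *Lpcat3KOMac* mice. WT mouse 1 held the highest value and the other WT mice the lowest, so the *Lpcat3KOMac* libraries fell between them. Its log2 fold change of -0.21 had an SE of 0.83 and a 95% interval of -2.28 to 1.85, the widest of the 10.

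*Sod1* (ENSMUSG00000022982, chr16:90220742-90226322, plus strand), the copper- and zinc-dependent dismutase, reached 514, 316 and 266 CPM in the WT mice and 270, 332 and 279 CPM in the *Lpcat3KOMac* mice. WT mouse 1 alone stood above the other libraries, which overlapped between genotypes. The log2 fold change was -0.32 (SE 0.26, 95% interval -0.96 to 0.33), and without WT mouse 1 it was 0.01.

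*Sod2* (ENSMUSG00000006818, chr17:13007839-13018119, plus strand), the manganese-dependent dismutase of mitochondria and a target of NF-kappaB in inflamed macrophages, reached 147, 117 and 108 CPM in the WT mice and 120, 117 and 111 CPM in the *Lpcat3KOMac* mice. The *Lpcat3KOMac* libraries lay inside the WT range. Genotype differed by -0.10 on the log2 scale (SE 0.13, 95% interval -0.42 to 0.23).

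*Cat* (ENSMUSG00000027187, chr2:103453849-103485160, minus strand), the peroxisomal catalase that is abundant in hepatocytes, reached 1306, 325 and 245 CPM in the WT mice and 511, 764 and 452 CPM in the *Lpcat3KOMac* mice. As for *Prdx6*, WT mouse 1 was the highest library and the other WT mice were the lowest. The log2 fold change was -0.12 (SE 0.69, 95% interval -1.84 to 1.60). Without WT mouse 1 the log2 fold change was 1.02 for *Cat* and 1.24 for *Prdx6*, with unadjusted p-values of 0.0123 and 0.0147 and adjusted p-values of 0.294 and 0.295 (edgeR's quasi-likelihood test, Benjamini-Hochberg adjusted). In the 5 libraries left, all 3 *Lpcat3KOMac* mice held more hepatocyte transcripts than both WT mice.

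*Aifm2* (ENSMUSG00000020085, chr10:61715263-61739260, plus strand) was the least abundant member (12.4, 7.73 and 6.76 CPM in the WT mice, and 8.01, 13.4 and 4.63 CPM in the *Lpcat3KOMac* mice). The *Lpcat3KOMac* libraries held both the highest and the lowest value. As for *Gpx4*, the highest library of each genotype was the one richest in hepatocyte transcripts. The log2 fold change was -0.04 (SE 0.44), and the 95% interval of -1.13 to 1.04 leaves room for differences in either direction. Exons of *Aifm2* share 233 bases with *H2afy2* on the other strand, whose highest count was 19.7% of the lowest count of *Aifm2*. *H2afy2* was higher in every *Lpcat3KOMac* library (means 0.680 CPM, and 0.484 CPM in WT). The part of the shared bases in the values of *Aifm2* was not tested.

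**Figure D2:**
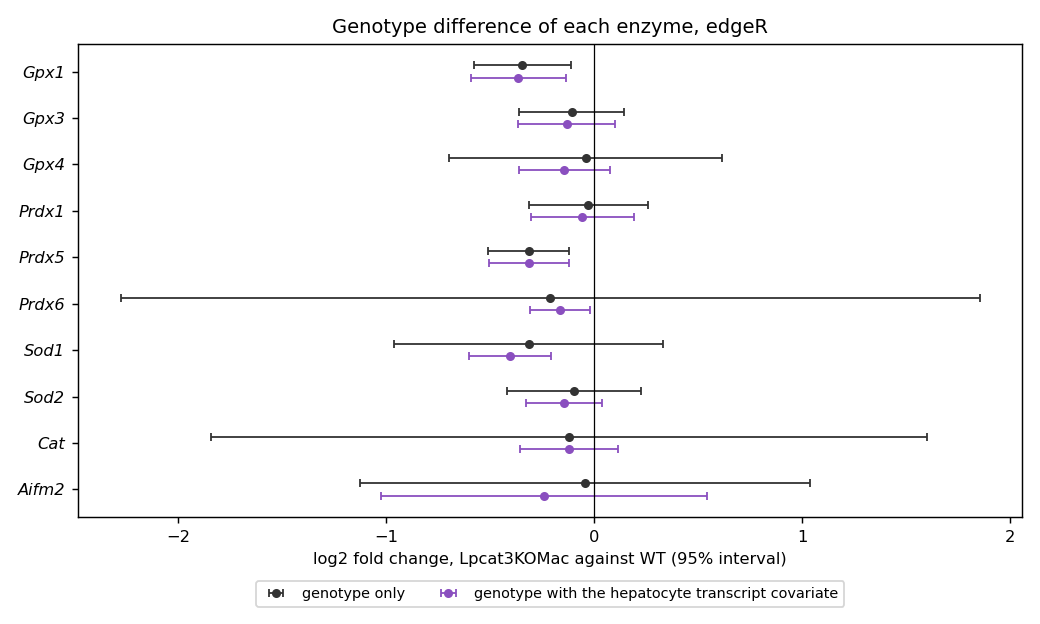
Log2 fold change of each enzyme, *Lpcat3KOMac* against WT, with its 95% interval from edgeR, for genotype alone (black) and with the hepatocyte transcripts of each library as a covariate (purple). The intervals of *Gpx1* and *Prdx5* lie below 0 in both fits. Every interval is narrower with the covariate, most of all those of *Prdx6* and *Cat*.

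Kupffer cell transcripts were also lower on average in *Lpcat3KOMac* cells, but their summed level overlapped between genotypes. Of the 8 Kupffer cell markers 8 had a log2 fold change below 0, from -0.46 for *Timd4* to -0.18 for *Adgre1*, and none passed the adjusted threshold (edgeR, with 2 at an unadjusted p-value under 0.05, *Clec4f* and *C1qa*). Each Kupffer cell marker was highest in WT mouse 2 and lowest in *Lpcat3KOMac* mouse 2, so the 8 did not vary independently. *Timd4* had an SE of 0.69. Over all genes tested, 59.9% were below 0 and 2.64% had an unadjusted p-value under 0.05 (edgeR). The summed level of the Kupffer cell markers was 32007 to 44274 CPM in WT and 25355 to 34573 CPM in *Lpcat3KOMac* libraries (two-sided exact permutation test, p = 0.3). The 6 sinusoidal endothelial markers all had a log2 fold change above 0, with a summed level of 767 to 912 CPM in WT and 881 to 1230 CPM in *Lpcat3KOMac* libraries. Summed neutrophil markers were 1.96 to 2.95 CPM in WT and 4.09 to 5.59 CPM in *Lpcat3KOMac* libraries, with *Ly6g* at most 0.0637 CPM in any library. Summed cholangiocyte markers were 0.280 to 0.590 CPM in WT and 0.672 to 0.694 CPM in *Lpcat3KOMac* libraries. The part of these cells in the difference of *Gpx1* and *Prdx5* was not tested.

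Log2 fold changes also ran with the exonic length of the gene over the whole table (Spearman's rho 0.19 across 16134 genes, which are not independent replicates). Genes of up to 1500 exonic bases, which include *Gpx1* (1441 bases) and *Sod1* (646 bases), had a median of -0.10, and those of 2000 to 3000 bases, which include *Prdx5* (2139 bases), had a median of -0.07. *Gpx1* was at -0.35 and *Prdx5* at -0.32, below both medians. In an alternative fit with an offset for exonic length, all 10 enzymes were below 0 and the median of all genes was -0.13. There 0 of the 10 passed the adjusted threshold and 2 had an unadjusted p-value under 0.05 (edgeR). The part of length in each difference was not tested beyond that fit.

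The levels of 4 of the 10 enzymes rose with the hepatocyte transcripts of the library, and none fell. A slope was fitted across the 6 libraries on the mean log2 CPM of the 5 hepatocyte transcripts, with genotype in the model, after the spread of *Prdx6* and *Cat* had been seen. It was 0.70 log2 units of *Prdx6* per log2 unit of hepatocyte transcripts (SE 0.02, adjusted p = 2.81e-05), the steepest of the members. *Cat* had a slope of 0.58 (SE 0.03, adjusted p = 0.000154), while *Gpx4* and *Sod1* were flatter at 0.22 each (SE 0.03 for each, adjusted p = 0.00522 and 0.0038). All were edgeR quasi-likelihood tests with Benjamini-Hochberg adjustment over 16134 genes, of which 15.3% rose, 7.64% fell and 23% did either at this threshold. *Aifm2* (slope 0.29, adjusted p = 0.121) and *Sod2* (slope 0.09, adjusted p = 0.0545) did not pass. Without WT mouse 1 the slope of *Aifm2* was 0.84 (adjusted p = 0.195) and that of *Sod2* 0.036 (adjusted p = 0.868).

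The slopes of *Gpx1* (0.03), *Gpx3* (0.04), *Prdx1* (0.06) and *Prdx5* (-0.001) had 95% intervals that held 0. Without WT mouse 1 they were 0.0046, 0.18, -0.089 and -0.082 in the same order, and none passed the adjusted threshold (edgeR). For these 4 enzymes the mean of the hepatocyte-rich pair of libraries was 0.983 to 1.10 times the mean of the other 4 libraries, beside 3.46 times for *Prdx6* and 2.70 times for *Cat*. Without WT mouse 1, the library richest in hepatocyte transcripts, *Prdx6* alone still passed, as did 1.21% of all genes.

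**Figure D3:**
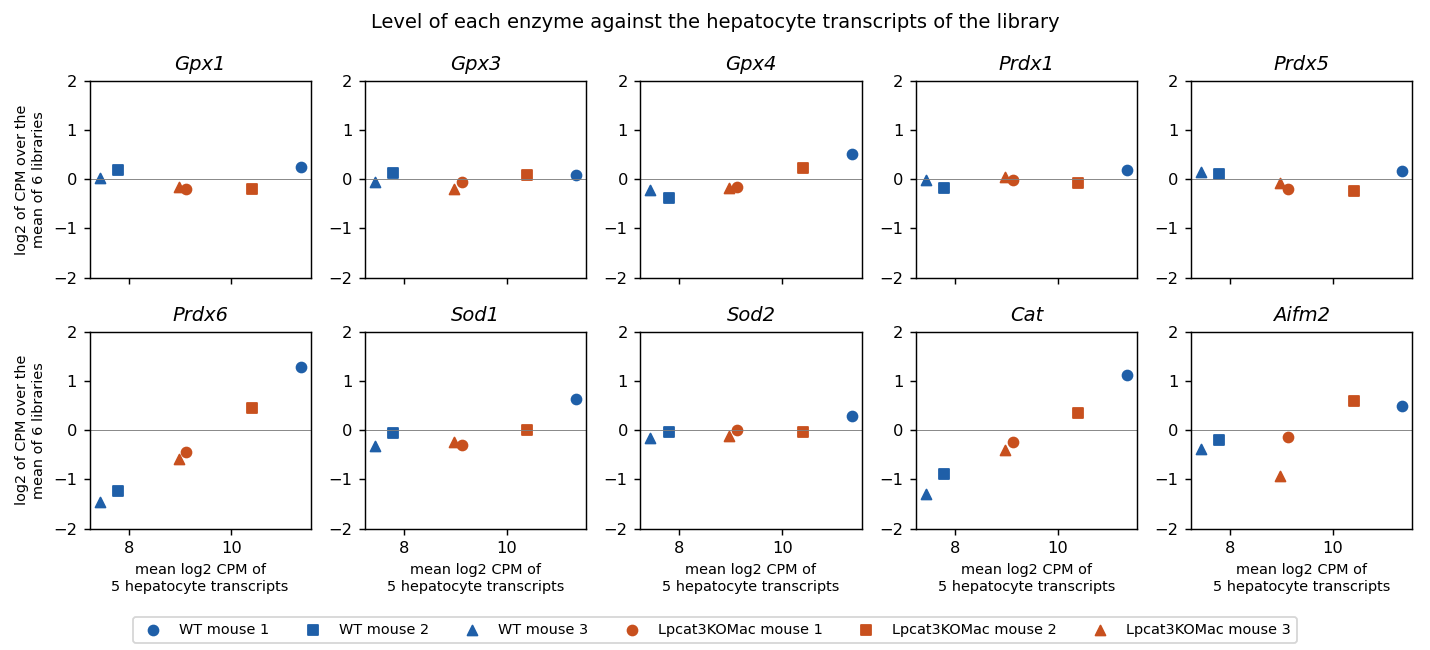
Log2 of each enzyme's CPM over its mean in the 6 libraries (vertical) against the mean log2 CPM of 5 hepatocyte transcripts in the same library (horizontal), 1 panel per enzyme and 1 point per mouse. *Prdx6* and *Cat* climb along the axis with slopes of 0.70 and 0.58, while *Gpx1* and *Prdx5* stay flat with the *Lpcat3KOMac* points below the WT points.

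With that covariate in the fit, 0 genes passed the adjusted threshold for genotype and 9.17% of all genes had an unadjusted p-value under 0.05 (edgeR). Of the enzymes 4 of 10 did: *Gpx1* at -0.37 (SE 0.09), *Prdx5* at -0.31 (SE 0.08), *Sod1* at -0.41 (SE 0.08) and *Prdx6* at -0.16 (SE 0.06). Their adjusted p-values were 0.481 to 0.507. Genotype differences with the covariate were not computed without WT mouse 1. With genotype alone and that mouse left out, *Sod1* was at 0.01 and *Prdx6* at 1.24. *Gpx4* was at -0.14 with a 95% interval of -0.36 to 0.08, and *Cat* at -0.12 with an interval of -0.36 to 0.11.

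Per exonic kilobase, the scale on which genes can be set side by side, *Gpx1* led at 1312 ± 189 CPM per kilobase (SD over 6 libraries). *Sod1* followed at 510 ± 146, *Prdx1* at 243 ± 21.2, *Cat* at 230 ± 149 and *Prdx5* at 164 ± 20.4 CPM per kilobase. *Gpx4* was at 69.0 ± 17.1, *Gpx3* at 59.1 ± 4.96, *Sod2* at 31.4 ± 3.62, *Prdx6* at 19.7 ± 15.5 and *Aifm2* at 2.14 ± 0.823 CPM per kilobase. Between neighbours in this order the ranges over libraries overlapped for *Prdx1* and *Cat*, *Cat* and *Prdx5*, *Gpx4* and *Gpx3*, and *Sod2* and *Prdx6*. When levels were divided by coding length, *Gpx1* stayed first and *Aifm2* last, while *Prdx1* passed *Sod1*, *Prdx5* passed *Cat*, and *Sod2* passed *Gpx3* and *Gpx4*, and *Gpx3* passed *Gpx4* (158 and 157 CPM per coding kilobase). Together the 10 transcripts took 0.387% to 0.6% of the normalized reads of a library, with WT mouse 1 the highest.

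**Figure D4:**
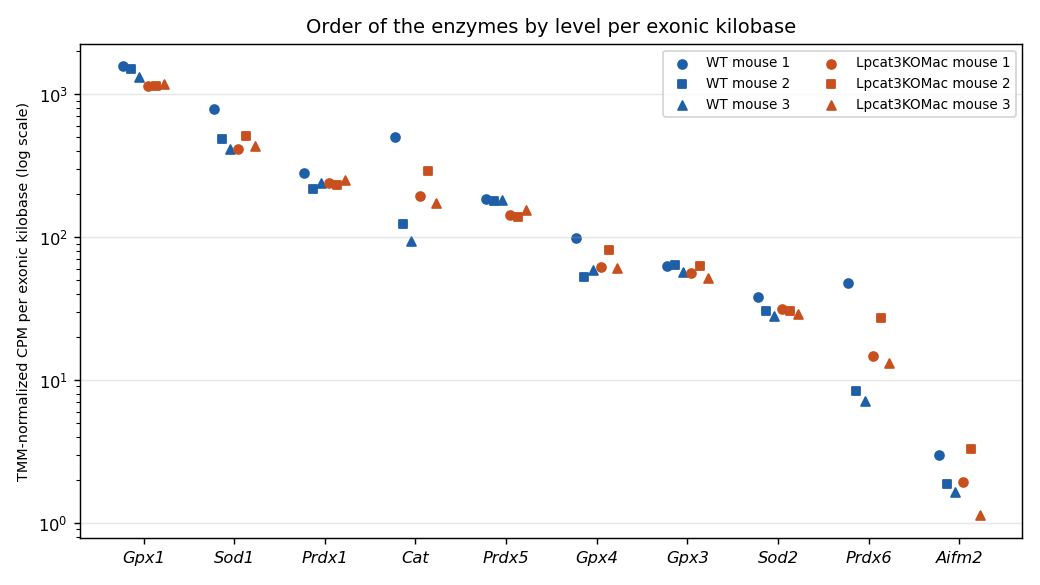
TMM-normalized CPM per exonic kilobase (log axis) of the 10 enzymes in descending order of their mean, with 1 point per library. *Gpx1* is highest in all 6 libraries and *Aifm2* lowest in all 6, and the points of *Cat* and *Prdx6* are the most spread.

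Across the 6 libraries the enzymes fell into patterns that can be given as correlations of log2 CPM, with no test, since the points share the hepatocyte content of the library. *Prdx6* and *Cat* went together most closely (r = 0.995), *Gpx4* with *Prdx6* at 0.958 and with *Cat* at 0.927, and *Sod1* with *Sod2* at 0.929. *Gpx1* and *Prdx5* correlated at 0.903 over all libraries and at 0.228 once each genotype's mean had been subtracted. The genes most like *Gpx4*, among 9071 with a mean of at least 10 CPM, were *Pdhb* (r = 0.999), a subunit of pyruvate dehydrogenase, *Echs1* (0.998), an enzyme of mitochondrial fatty acid oxidation, and *Phb2* (0.997), a prohibitin of the mitochondrial inner membrane. Those most like *Aifm2* were *Ccni* (0.990), *Eef1a1* (0.990) and *Eif3l* (0.987), a cyclin-family gene and 2 genes of translation.

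Of 9 other enzymes of these families, *Gpx2*, *Gpx5* and *Gpx6* were too low to be tested, and of the remaining 6 none passed the adjusted test (edgeR; 0 at an unadjusted p-value under 0.05). They had a median log2 fold change of -0.10, with 4 below 0, and the groups did not overlap for 1 of the 6. For this list and those that follow, the shares over all genes tested were 59.9% below 0 and 2.64% at an unadjusted p-value under 0.05 (edgeR). Over all genes the groups did not overlap for 7.49%, and every *Lpcat3KOMac* library was below every WT library for 5.2%. *Prdx2*, a cytosolic peroxiredoxin, was at 159, 144 and 145 CPM in WT and 122, 135 and 139 CPM in *Lpcat3KOMac* libraries, lower in each, with a log2 fold change of -0.18 (SE 0.09). *Sod3*, the extracellular dismutase, had a log2 fold change of 0.58 (SE 0.42) with overlapping genotypes.

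Of 13 genes that supply reduced thioredoxin and glutathione 0 passed (edgeR; 1 at an unadjusted p-value under 0.05), with 6 below 0 and a median log2 fold change of 0.01. *Txn1*, the cytosolic thioredoxin that recycles peroxiredoxins, was at 551, 579 and 544 CPM in WT and 445, 421 and 510 CPM in *Lpcat3KOMac* libraries. All *Lpcat3KOMac* libraries were below all WT libraries, with a log2 fold change of -0.28 (SE 0.10, unadjusted p = 0.0308, adjusted p = 1 with edgeR). *Txnrd2*, the mitochondrial thioredoxin reductase and itself a selenoprotein, was also lower in each, at -0.20 (SE 0.11). *Txn1* and *Txnrd2* were the 2 of the 13 whose groups did not overlap, beside 7.49% of all genes tested.

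Selenocysteine and metal delivery was represented by 9 genes, of which 0 passed for genotype (edgeR; 0 at an unadjusted p-value under 0.05), with a median log2 fold change of 0.01. *Ccs*, the copper chaperone of SOD1, was at -0.31 (SE 0.50) and *Lrp8*, a receptor for selenoprotein P, at 0.65 (SE 0.51) with under 1 CPM in every library. Of these 9 genes 6 rose with the hepatocyte transcripts, beside 15.3% of all genes tested, including *Ccs* (slope 0.42, adjusted p = 0.000268 with edgeR) and *Sephs2*, which makes the selenium donor for selenocysteine (slope 0.74, adjusted p = 2.81e-05). Without WT mouse 1 only *Sephs2* of the 9 passed, beside 1.21% of all genes. In the other lists 1 of the 6 family enzymes, 4 of the 13 thioredoxin and glutathione genes and 4 of the 14 regulators described next rose, 1 of the latter fell, and none of these passed without WT mouse 1 (edgeR).

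Among 14 regulators of lipid peroxidation and ferroptosis 0 passed for genotype (edgeR; 1 at an unadjusted p-value under 0.05), with 7 above and 7 below 0. The groups did not overlap for 1 of the 14, beside 7.49% of all genes tested. *Coq2*, an enzyme of coenzyme Q synthesis, was at 52.4, 49.3 and 45.6 CPM in WT and 40.6, 43.7 and 42.7 CPM in *Lpcat3KOMac* libraries. The groups did not overlap, with a log2 fold change of -0.21 (SE 0.09, unadjusted p = 0.0473, adjusted p = 1 with edgeR). *Ftl1*, the ferritin light chain, was at -0.13 (SE 0.10) and overlapped, and *Acsl4*, which activates polyunsaturated fatty acids for phospholipids, was at 0.06 (SE 0.09).

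Several of these enzymes are known targets of NRF2, which binds the antioxidant response element, so the promoters of the members were searched for its core TGACNNNGC on both strands. RefSeq windows of 300 bases around the start site (GRCm38.p6) were found for all members but *Prdx6*. The core was found in those of *Prdx1* and *Sod1* alone, beside 13.99% of the 27025 genes in the table and 12.39% of its 32851 windows. Both matches lie on the strand opposite to the gene, and their first base is 133 bases before the start site for *Prdx1* and 56 bases before it for *Sod1*. The stretches shown, chr4:116685451-116685489 and chr16:90220691-90220729, include flanking bases on either side, are written on the gene's strand and have the match in capitals. The *Prdx1* match overlaps the AP-1 motif TGAGTCA.
Prdx1: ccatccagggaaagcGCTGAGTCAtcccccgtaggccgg
Sod1: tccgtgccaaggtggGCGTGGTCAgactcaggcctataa
A match of these letters is a description and not a binding site, and neither gene passed the test for genotype.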

How the data were processed

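RNA from liver F4/80-positive cells of 6 mice was sequenced (poly(A) libraries, 1 per mouse). The authors deposited unnormalized counts per Ensembl gene, and the submitters' processing notes name Trimmomatic 0.36, STAR 2.5.2b, featureCounts, Subread 1.5.2 and the GRCm38 build. The strand setting and the handling of multiply mapping reads are not given in the sources used here, so overlapping genes and close copies are uncertain. Symbols and coding sequences came from GENCODE M21, and copies were sought with blastn 2.17.0 (at least 90% identity over 200 bases).

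Groups came from the sample labels. No 2 libraries were copies: every pair differed by more than the sampling noise (chi-square per degree of freedom 40.8 to 519). Counts were compared with edgeR 4.0.16 (R 4.3.3; TMM, minimum count 10, robust quasi-likelihood test, genotype as the only term), with Benjamini-Hochberg adjustment over 16134 genes and a threshold of 0.05. The standard error is the absolute log2 fold change over the square root of F. Permutation tests were two-sided and exact on log2 CPM (prior count 2). Alternatives used DESeq2 1.42.0, limma-voom (limma 3.58.1), other scalings, filters and covariates, and an offset for exonic length. Others took the replicate number as a block or left each mouse out. The fits were tested on simulated counts with planted changes larger than the genotype differences of these enzymes. That test does not show whether differences of their size would be found. With 44954224 to 71392812 counts per library, sampling of reads adds little to the differences between mice for these enzymes.

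The 10 members were taken by name, and within each list of partner genes the 2 with the smallest unadjusted p-value were named, with the 3 genes most like *Gpx4* and *Aifm2*. *Acsl4* and *Sephs2* were added after their values were seen. The members and lists were chosen with earlier results of these data known.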

Additional observations from a re-analysis of the deposited data

How the results depend on the processing

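Of the genotype results, 0 of the 10 enzymes passed the adjusted threshold in any of 18 alternatives, with 0 to 4 at an unadjusted p-value under 0.05, and the whole table had 0 calls in each but DESeq2, which called 15. *Gpx1*, *Gpx3* and *Prdx5* were below 0 in all 18. The other members are weak in direction and turned above 0 as follows, and the cause was not tested. With total counts alone, which moved the median of all genes up by 0.10, *Aifm2* was at 0.065, *Cat* at 0.022, *Gpx4* at 0.069, *Prdx1* at 0.072 and *Sod2* at 0.0064. With limma-voom *Cat* was at 0.26, *Gpx4* at 0.00052 and *Prdx6* at 0.27. With both hepatocyte-rich libraries left out *Cat* was at 0.76, *Ccs* at 0.14, *Gpx4* at 0.14, *Prdx1* at 0.11, *Prdx6* at 0.85 and *Sod2* at 0.039. In that comparison *Prdx6* had an unadjusted p-value of 0.000743 and an adjusted one of 0.0818 (edgeR), and the *Lpcat3KOMac* pair held 2.91 and 3.22 times the hepatocyte transcripts of the lowest library, beside 1.28 and 1 for the WT pair. Leaving out 1 mouse gave ranges of -0.49 to 0.29 for *Aifm2*, -0.50 to 1.02 for *Cat*, -0.57 to 0.40 for *Ccs*, -0.21 to 0.28 for *Gpx4*, -0.11 to 0.075 for *Prdx1*, -0.62 to 1.24 for *Prdx6*, -0.50 to 0.013 for *Sod1* and -0.19 to 0.044 for *Sod2*. Without a change of sign it gave 0.28 to 0.88 for *Sod3*, 0.28 to 1.23 for *Lrp8*, -0.20 to -0.085 for *Prdx2*, -0.26 to -0.11 for *Txnrd2*, -0.16 to -0.053 for *Ftl1* and -0.17 to -0.012 for *Gpx3*. The labels number the mice within each genotype and state no pairing between genotypes. Correlations between same-numbered deviations were -0.30, -0.60 and 0.36, which cannot decide whether mice were paired, since each deviation is taken from a mean of few libraries. With the replicate number as a block 0 genes were called, 138 had an unadjusted p-value under 0.05, and *Cat* was at 0.29, *Gpx4* at 0.0016 and *Prdx6* at 0.35. The count of 4 enzymes that rose with the hepatocyte transcripts was 3 without a genotype term and 5 with DESeq2's size factors or without robust dispersion, and leaving out 1 mouse gave 1 to 4, with 1 without WT mouse 1. The slope of *Prdx1* ranged from -0.089 (without WT mouse 1) to 0.085 with 1 mouse left out, that of *Gpx3* from 0.019 to 0.18, that of *Aifm2* from 0.23 to 0.84, that of *Sod2* from 0.036 to 0.12, and that of *Prdx5* from -0.082 to 0.021, with 0.0085 under DESeq2's size factors. The slope and its alternatives, and coding length from GENCODE, were chosen after seeing the data. Division by the length of the RefSeq protein was not run.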
